A study of Homo sapiens with 91 samples.

Results

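The transcription factors TAL1, LMO2, GATA3, RUNX1, MYB, TCF7, LEF1 and BCL11B, the receptor NOTCH1 and its target HES1 form the core of the regulatory program of T-cell acute lymphoblastic leukemia. These 10 genes were chosen by name, by matching the Ensembl identifiers of the deposited count tables to the symbols, and they are 10 of 62710 gene entries. The matching itself used no measured value, and each symbol matched 1 identifier. The genes were, however, chosen with earlier results of these data known. RNA of 3 human cancer cell lines was sequenced in 91 libraries after exposure to KI-CDK9d-32 (which degrades the kinase CDK9), to KB-0742 (which inhibits it) or to the vehicle DMSO. MOLT4, a line from acute lymphoblastic leukemia, is the setting in which these genes act and had 35 libraries, while PSN1, a pancreatic adenocarcinoma line with 32 libraries, and RH4, a rhabdomyosarcoma line with 24, served as contrast. MOLT4 cells were collected after 2, 4 and 8 h of KI-CDK9d-32, of KB-0742 and of DMSO. PSN1 cells had the same groups except KB-0742 at 2 h, and RH4 cells had all 3 treatments at 4 and 8 h. Each group held 4 libraries, except MOLT4 with DMSO at 4 h, which held 3. The labels give no doses, and the design text names RH1 where every sample label names RH4. Each library came from wells seeded with 1000 cells, per the labels, and libraries were made from 1 ng of total RNA by SMART-seq2, a full-length method without molecular identifiers.

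TAL1 is a basic helix-loop-helix factor that is switched off in normal thymocyte maturation and kept on in many T-cell leukemias, where it binds DNA with E proteins and LMO2 and shares its sites with GATA3, RUNX1 and MYB. NOTCH1 is a cell-surface receptor whose cleaved intracellular part joins RBPJ on DNA and switches on targets such as HES1, a repressor. TCF7 and LEF1 carry WNT signals to DNA and act early in the T lineage, and BCL11B holds cells in that lineage. CDK9 is the kinase of P-TEFb, which releases paused RNA polymerase II into elongation, and genes with short-lived transcripts, as many transcription factor genes are, depend on its steady activity. Both compounds act on the CDK9 protein, so transcript levels of CDK9 do not check them.

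Depth ran from 1598283 to 3240753 gene counts per MOLT4 library, from 1998712 to 3227113 per PSN1 library and from 1670111 to 3136769 per RH4 library. Counts of single genes carry counting error, which intervals below cover. Floors below only set a group without counts at 3 counts, and amplification is part of neither. Because the same amount of spike-in RNA went into every lysate, its share of the counts rises as RNA per lysate falls, and fewer cells and less RNA per cell cannot be told apart in such bulk samples. Spike-ins took 39.9% ± 14.8 of the counts of MOLT4 cells after 8 h of KI-CDK9d-32, against 14.5% ± 1.91 after DMSO (SD, n = 4 each). All 4 libraries with the degrader lay above all 4 with vehicle, with p = 0.0286 in a two-sided exact permutation test, the smallest p that 4 against 4 allows, and 0.0857 after adjustment over 9 comparisons. KB-0742 at 8 h gave 21.5% ± 2.59 (SD, n = 4), with the same p against vehicle. Single libraries reached 61.5% (KI-CDK9d-32 at 8 h, replicate 3), 49.4% (KB-0742 at 4 h, replicate 3) and 39.5% (KI-CDK9d-32 at 4 h, replicate 3). Unless another scale is named, a change is given on the log2 scale ± its standard error after TMM scaling, which compares a gene with the other genes of the same libraries, and p-values are from the edgeR quasi-likelihood test with Benjamini-Hochberg adjustment over all genes tested, called when under 0.05. Scaled to spike-ins instead, the median of all 11664 genes tested in MOLT4 moved by -0.41, -1.13 and -2.99 at 2, 4 and 8 h of the degrader, and by -0.86, -1.38 and -1.41 for the inhibitor, against -0.18 or less in size under TMM. Where the direction of a change given here turns under spike-in scaling or under plain library size, that value stands beside it.

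With vehicle, MOLT4 cells expressed 9 of the 10 genes above 1 TPM (a level that takes transcript length into account), and LMO2 was the exception. TCF7 led with 346 ± 54.7 TPM and LEF1 followed with 121 ± 21.1 TPM (SD, n = 11 libraries over 3 times). MYB at 15.5 ± 1.41 TPM, NOTCH1 at 14.9 ± 1.28 TPM and RUNX1 at 12.3 ± 3.00 TPM overlapped each other across libraries and lay below LEF1 in all of them. GATA3 at 4.16 ± 1.46 TPM, BCL11B at 3.19 ± 0.686 TPM and TAL1 at 3.06 ± 0.781 TPM formed a lower band that also overlapped, and the lowest RUNX1 library lay above the highest GATA3 library. HES1 had 1.66 ± 0.824 TPM, overlapping TAL1. LMO2 had 0.143 ± 0.157 TPM, from 8 counts in all 11 libraries together.

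PSN1 and RH4 cells lacked most of this program. In PSN1, TAL1, LMO2, LEF1 and BCL11B had no count in any of 12 vehicle libraries, and MYB had 8 counts in 3 of them. NOTCH1 (4.22 ± 0.998 TPM), RUNX1 (3.66 ± 0.936), HES1 (3.45 ± 1.42) and TCF7 (2.16 ± 1.01) were the 4 genes above 1 TPM there, with levels that overlapped between neighbours. In RH4, TAL1 had no count in 8 vehicle libraries, and RUNX1 (4.73 ± 0.909 TPM), NOTCH1 (3.21 ± 0.667), LEF1 (1.83 ± 0.645) and TCF7 (1.37 ± 0.692) were above 1 TPM. The labelled lineages were checked against markers. All 17 T-lineage markers exceeded 1 TPM in MOLT4 (summed level 8832 to 10180 TPM over libraries), against 2 in PSN1 (193 to 373 TPM summed, the receptor constant genes TRBC1 and TRBC2 being those above 1 TPM) and 0 in RH4 (0 to 1.06 TPM), where RAG2, PTCRA, CD3E and DNTT had no count. In PSN1, 7 of 8 epithelial markers exceeded 1 TPM, and in RH4 all 8 rhabdomyosarcoma markers did, against none of either list in MOLT4. In MOLT4, 1 of 5 B-lineage markers exceeded 1 TPM (summed level 1.04 to 6.72 TPM, MS4A1 and PAX5 at 0), and none of 5 myeloid markers did (0 to 1.20 TPM, CD33 and MPO at 0).

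**Figure D1:**
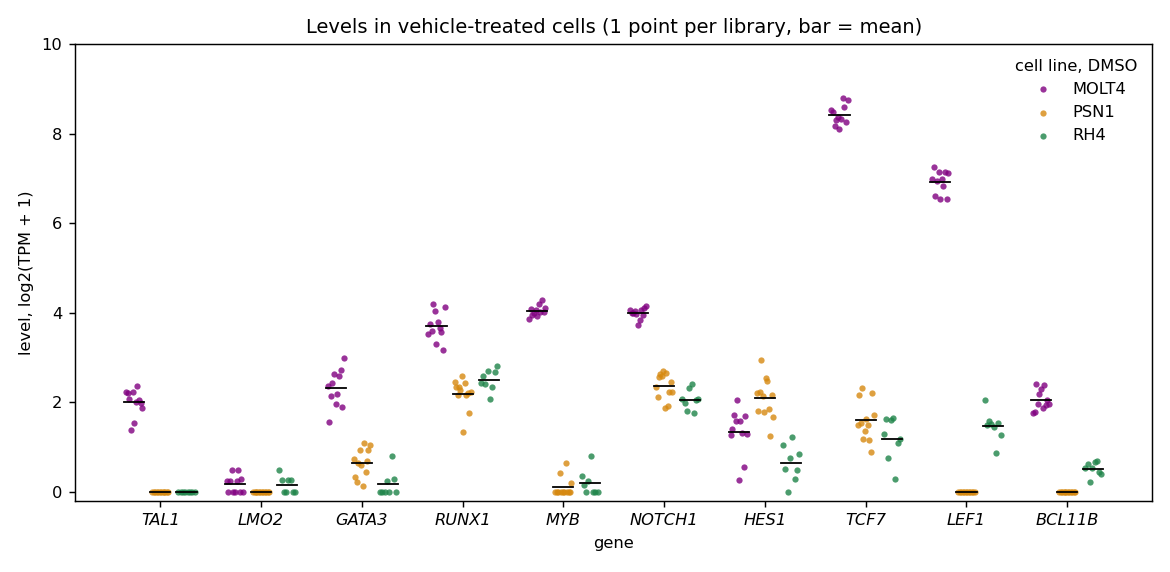
Levels of the 10 genes with DMSO, as log2 of TPM plus 1 on the vertical axis, with 1 point per library and a bar at the mean, for MOLT4 (purple), PSN1 (orange) and RH4 (green). TCF7 and LEF1 stand above all other genes in MOLT4, and TAL1 sits at 0 in PSN1 and RH4, while HES1 is the gene with a higher mean in PSN1 than in MOLT4, with overlapping libraries.

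Vehicle libraries at 4 and 8 h were compared directly between lines, and all 9 tested genes were called in MOLT4 against PSN1 and against RH4, where 65.5% and 64.3% of all genes were called. TAL1, LEF1 and BCL11B in PSN1 and TAL1 in RH4 had no counts, passed the filter through MOLT4 and could only be higher there, so nothing is read from the number of calls or from their tests. TCF7 was higher in MOLT4 by 7.00 ± 0.17 over PSN1 and by 7.77 ± 0.18 over RH4. MYB and GATA3 were below the filters of PSN1 and RH4 themselves and also passed through MOLT4. MYB had 5 and 1 counts at 4 and 8 h in PSN1, and 5 and 2 in RH4. Its estimates of 7.71 ± 0.38 and 7.45 ± 0.36 rest on those counts and give only the rough size. With 3 counts over the group as the floor, LEF1 was at least 1293-fold, BCL11B at least 234-fold and TAL1 at least 128-fold higher in MOLT4 than in PSN1, and TAL1 at least 123-fold higher than in RH4. These bounds describe levels, and their size depends on the chosen floor. RUNX1 and NOTCH1, which all 3 lines expressed, differed less than these, with 1.82 ± 0.18 and 1.53 ± 0.13 over PSN1 and 1.55 ± 0.17 and 2.24 ± 0.13 over RH4. HES1 was lower in MOLT4 than in PSN1 (-1.23 ± 0.45, adjusted p = 0.0163), a call that was lost without MOLT4 DMSO 4 h replicate 3 (0.0527), and higher than in RH4 by 1.39 ± 0.51 (0.018), lost without MOLT4 DMSO 4 h replicate 1 (0.0976) and under spike-in scaling.

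Promoter sequences of 9 of the 10 genes were found in the RefSeq table (GRCh38.p14), in 16 windows of 250 bases that end at an annotated start. Short core motifs of the factors in question were searched in them on both strands: GTGGGAA for RBPJ, TGTGGT for RUNX factors, CTTTGA for TCF and LEF factors, AGATAA for GATA factors and CAGNTG for TAL1 with E proteins. Of 35116 promoter windows of all genes, 5.43% held the RBPJ letters, 11.0% the RUNX, 11.2% the TCF or LEF, 9.17% the GATA and 42.5% the E-protein letters. Among the 16 windows of the 9 genes, 1 held the RBPJ letters (HES1) and 3 the RUNX letters (1 each of TAL1, GATA3 and LEF1). The TCF or LEF letters stood in 1 window (GATA3) and the GATA letters in 1 (TAL1). The E-protein letters stood in 4 windows (1 each of GATA3, TCF7, LEF1 and BCL11B). These are matches of letters and were not tested as binding sites. The 3 windows shown were picked because the results below turn on their genes, with motif letters in capitals: HES1 as the NOTCH target (chr3:194135898-194136147, plus strand), TAL1 at its upstream start (chr1:47232336-47232585, minus strand) and MYB, the gene with the largest contrast between the compounds at 8 h (chr6:135181058-135181307, plus strand).
HES1: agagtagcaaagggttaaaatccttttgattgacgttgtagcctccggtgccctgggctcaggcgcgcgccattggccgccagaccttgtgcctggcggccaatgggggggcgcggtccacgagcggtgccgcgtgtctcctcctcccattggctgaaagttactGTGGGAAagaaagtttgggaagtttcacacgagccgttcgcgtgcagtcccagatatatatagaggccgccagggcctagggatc
TAL1: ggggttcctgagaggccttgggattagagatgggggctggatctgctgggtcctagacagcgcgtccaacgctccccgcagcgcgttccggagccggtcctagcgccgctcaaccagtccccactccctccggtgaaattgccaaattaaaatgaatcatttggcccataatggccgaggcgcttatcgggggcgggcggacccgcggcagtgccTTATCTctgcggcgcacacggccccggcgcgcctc
MYB: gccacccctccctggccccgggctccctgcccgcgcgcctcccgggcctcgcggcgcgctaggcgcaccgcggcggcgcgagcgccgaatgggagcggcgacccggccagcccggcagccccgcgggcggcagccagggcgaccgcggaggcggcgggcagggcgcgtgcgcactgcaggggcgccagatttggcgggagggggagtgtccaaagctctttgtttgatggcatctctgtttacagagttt
The HES1 window holds the RBPJ letters 85 bases before the start. In the TAL1 window the GATA letters stand on the reverse strand, 35 bases before the start, and a second TAL1 window nearer the coding part, not printed, holds the RUNX letters at 188, 90 and 56 bases before its start. The MYB window holds none of the motifs and is 75.6% G or C.

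In MOLT4 at 8 h MYB was lower than vehicle with the degrader and higher with the inhibitor, relative to the other genes. TAL1 was lower with both compounds, which did not differ from each other by a call. Its call with the inhibitor was lost in some fits without 1 library. With KI-CDK9d-32 against DMSO, 1 of 9 tested genes was called at 2 h, 4 at 4 h and 4 at 8 h, where 9.98%, 32.6% and 49.6% of all genes were called. KB-0742 against DMSO gave 1, 3 and 6 calls of 9, beside 26.1%, 35.8% and 49.2% of all genes. The compounds compared directly gave 3, 5 and 5 calls, beside 18.3%, 35.7% and 58.5%. These shares are near those of all genes or differ from them by 1 or 2 genes, so the count is not a result about the 10 genes, and what follows describes them singly. LMO2 did not pass the filter on low counts in any line. Both compounds are compared with the same vehicle libraries at each time.

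**Figure D2:**
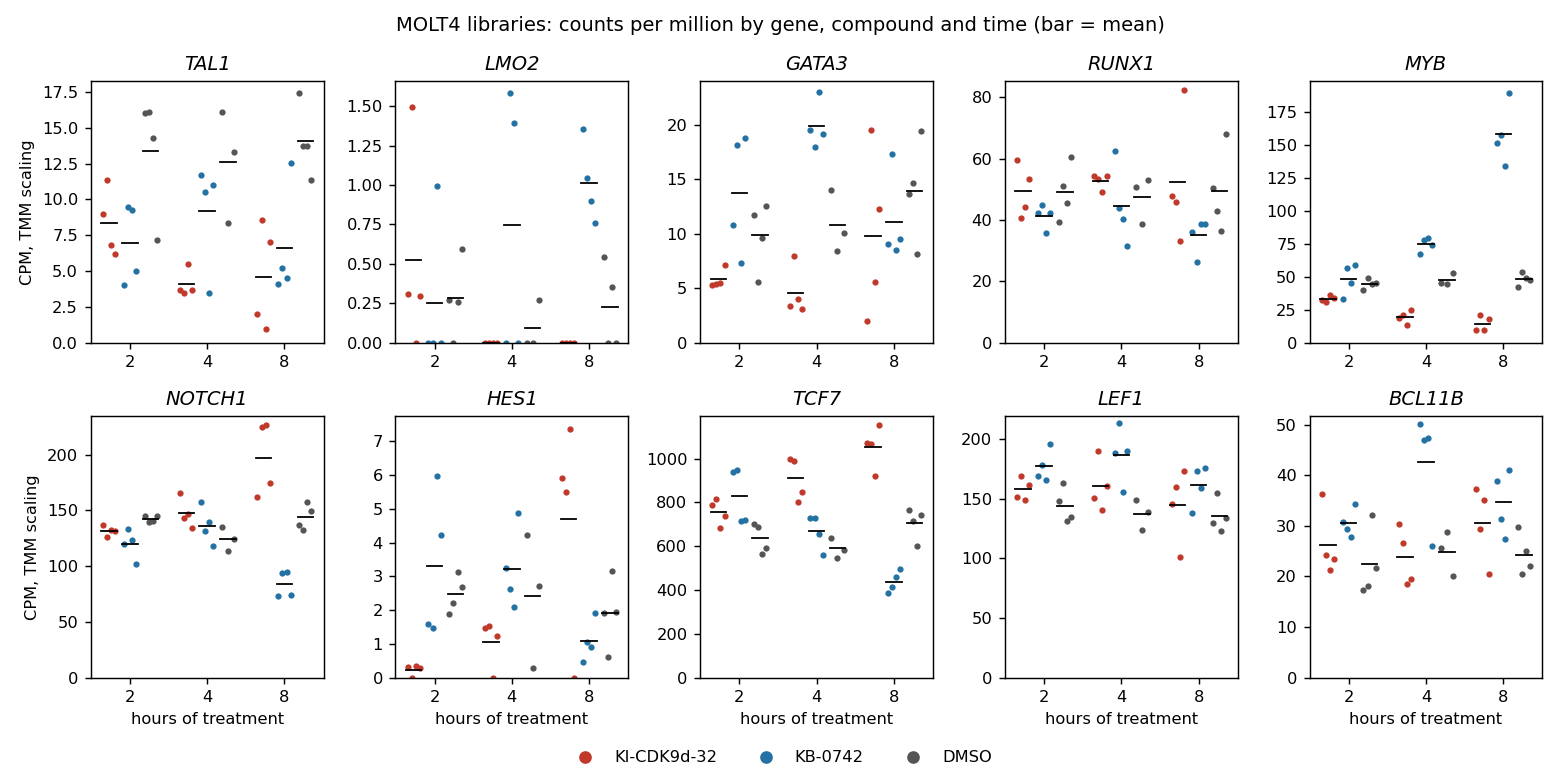
CPM with TMM scaling of the 10 genes in every MOLT4 library, by hours of treatment on the horizontal axis, for KI-CDK9d-32 (red), KB-0742 (blue) and DMSO (grey), with a bar at each mean. MYB separates the 3 treatments at 8 h, with 9.18 to 20.7 CPM with the degrader, 134 to 190 with the inhibitor and 42.5 to 53.3 with vehicle. On this scale TCF7 and NOTCH1 are highest with the degrader at 8 h, but on the spike-in scale both compounds lie below vehicle (log2 changes of -2.21 and -2.41 with the degrader).

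MYB encodes a factor that many leukemias need for growth (chromosome 6, bases 135181315 to 135219173 of GRCh38, plus strand, ENSG00000118513). At 2 h its libraries had 32.5, 31.1, 35.9 and 34.0 CPM (counts scaled to library depth) with KI-CDK9d-32, 32.7, 56.4, 45.5 and 58.8 CPM with KB-0742, and 39.5, 49.2, 44.7 and 45.0 CPM with DMSO. The degrader libraries lay below all vehicle libraries, but the change of -0.42 ± 0.17 was not called (adjusted p = 0.11), and the inhibitor overlapped vehicle. At 4 h MYB had 18.9, 20.9, 13.0 and 24.4 CPM with KI-CDK9d-32, 67.6, 77.5, 79.4 and 74.1 CPM with KB-0742, and 45.4, 44.7 and 52.8 CPM with DMSO. The 3 groups no longer overlapped, with the degrader lowest and the inhibitor highest. At 8 h the values were 9.18, 20.7, 9.22 and 18.1 CPM with KI-CDK9d-32, 151, 158, 134 and 190 CPM with KB-0742, and 42.5, 53.3, 49.3 and 47.6 CPM with DMSO. The order of groups was that of 4 h, with wider gaps.

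MYB fell by 1.31 ± 0.20 on the log2 scale with the degrader at 4 h (adjusted p = 4.73e-07) and by 1.70 ± 0.21 at 8 h (9.99e-10). The 8 h effect exceeded the 2 h effect in size, with a difference between the effects of -1.28 ± 0.27 (adjusted p = 0.000185). With KB-0742, MYB was at +0.12 ± 0.17 at 2 h, which was not called and turned to -0.65 under spike-in scaling and -0.37 under library size, and rose by 0.65 ± 0.18 at 4 h (0.0035), where spike-in scaling turns the sign (-0.70 ± 0.50) and library size leaves 0.01. At 8 h it rose by 1.72 ± 0.16 with the inhibitor (1e-12), by 1.08 under library size and by 0.41 ± 0.46 under spike-in scaling, which was not called (0.446). The 8 h effect of the inhibitor exceeded its 2 h effect by 1.60 ± 0.23 (3.13e-07), and by 1.06 ± 0.65 under spike-in scaling without a call (0.354). Counted per 10000 spike-in counts, MYB at 8 h had 0.101, 0.283, 0.0392 and 0.291 with the degrader, 3.63, 4.89, 4.34 and 7.36 with the inhibitor, and 3.20, 3.76, 3.44 and 4.77 with DMSO. On that scale the degrader libraries lay far below the rest, and the inhibitor and vehicle overlapped. Direct comparison of the compounds gave -0.54 ± 0.17 at 2 h (0.0205, lost in 4 of 8 fits that leave out 1 library, up to 0.104), -1.96 ± 0.19 at 4 h (4.22e-12) and -3.42 ± 0.20 at 8 h (3.55e-20), the last at -4.85 ± 0.55 under spike-in scaling. MYB-AS1, on the opposite strand, overlaps MYB, and since the libraries carry no strand their reads cannot be told apart. MYB-AS1 had 0 counts at 8 h with KI-CDK9d-32, 8 with KB-0742 and 2 with DMSO, where MYB had 89, 1433 and 614.

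**Figure D3:**
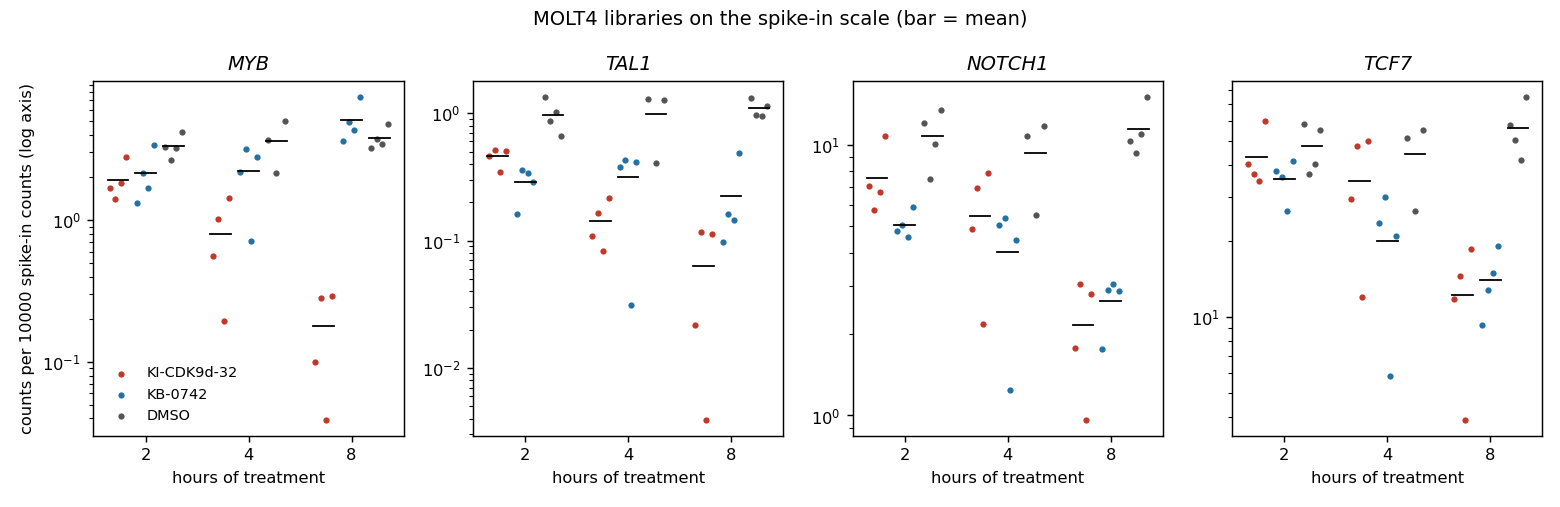
Counts per 10000 spike-in counts (log axis) of MYB, TAL1, NOTCH1 and TCF7 in every MOLT4 library by hours of treatment, with KI-CDK9d-32 in red, KB-0742 in blue, DMSO in grey and bars at the means. At 8 h MYB with the degrader lies between 0.0392 and 0.291, below every library of the other groups, while NOTCH1 and TCF7 lie below vehicle with both compounds, which overlap each other.

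TAL1 (chromosome 1, bases 47216290 to 47232220, minus strand, ENSG00000162367) was lower with the degrader at 4 and 8 h. At 4 h it had 3.70, 3.43, 5.50 and 3.65 CPM with KI-CDK9d-32, 11.7, 10.5, 3.48 and 11.0 CPM with KB-0742, and 16.1, 8.38 and 13.3 CPM with DMSO. Degrader libraries lay below all vehicle libraries, and 1 inhibitor library lay among the degrader libraries. At 8 h TAL1 had 1.97, 8.54, 0.922 and 7.02 CPM with KI-CDK9d-32, 4.07, 5.24, 4.50 and 12.5 CPM with KB-0742, and 17.4, 13.7, 13.7 and 11.3 CPM with DMSO. The degrader again lay below vehicle throughout, and 1 inhibitor library lay within the vehicle range. Changes with KI-CDK9d-32 were -1.63 ± 0.44 at 4 h (adjusted p = 0.00307) and -1.52 ± 0.43 at 8 h (0.00265), and -1.22 ± 0.43 at 8 h without the library with 61.5% spike-ins (0.0174). KB-0742 gave -0.94 ± 0.38 at 2 h (0.0624) and -1.07 ± 0.39 at 8 h (0.0209), the second lost in 4 of 8 fits without 1 library, namely DMSO replicate 1 or KB-0742 replicate 1, 2 or 3 (up to 0.0795). Between the compounds TAL1 was lower with the degrader at 4 h (-1.20 ± 0.44, 0.0297), lost in 6 of 8 such fits (up to 0.0764), and did not pass at 8 h (-0.46 ± 0.46).

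GATA3, a T-lineage factor that TAL1 complexes recruit (chromosome 10, bases 8045378 to 8075203, plus strand, ENSG00000107485), differed most between the compounds at 4 h. It then had 3.33, 8.00, 4.00 and 3.05 CPM with KI-CDK9d-32, 19.5, 17.9, 23.0 and 19.1 CPM with KB-0742, and 14.0, 8.38 and 10.1 CPM with DMSO. The 3 groups did not overlap, with vehicle between the compounds. GATA3 was lower with the degrader than with the inhibitor at 4 h (-2.06 ± 0.41, adjusted p = 5.8e-05) and at 2 h (-1.23 ± 0.38, 0.0157), the second lost without KB-0742 2 h replicate 2 or 4 (up to 0.0709) and under spike-in scaling. Against vehicle at 4 h the degrader gave -1.19 ± 0.43 (0.0263), lost without DMSO 4 h replicate 1 (0.133) or KI-CDK9d-32 4 h replicate 1, 3 or 4, and the inhibitor gave +0.87 ± 0.39 (0.075), which turned to -0.54 under spike-in scaling. At 8 h the degrader libraries spread from 1.97 to 19.5 CPM and overlapped both other groups, with -0.47 ± 0.38 against vehicle (0.326).

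RUNX1, the DNA-binding partner of CBFB (chromosome 21, bases 34787801 to 36004667, minus strand, ENSG00000159216), stayed near its vehicle level with the degrader on the TMM scale, with 49.4, 52.7 and 52.3 CPM at 2, 4 and 8 h as group means, against 49.1, 47.5 and 49.4 CPM with DMSO. It was lower on the other scales. By library size the 8 h mean was 34.0 CPM with the degrader against 65.4 CPM with DMSO. Per 10000 spike-in counts it was 0.653 against 4.04. With TMM scaling RUNX1 at 8 h had 47.8, 45.8, 33.2 and 82.5 CPM with KI-CDK9d-32, 36.1, 26.2, 38.7 and 38.8 CPM with KB-0742, and 50.4, 43.0, 36.3 and 68.0 CPM with DMSO. All 3 groups overlapped. KB-0742 gave -0.49 ± 0.20 (adjusted p = 0.0403), lost in 5 of 8 fits without 1 library (DMSO replicate 1 or 4, KB-0742 replicate 1, 2 or 4, up to 0.244), with RLE size factors (0.0501) and in DESeq2 (0.0505). RUNX1 was higher with the degrader than with the inhibitor by 0.60 ± 0.21 (0.0146), lost without KI-CDK9d-32 8 h replicate 4 (0.247) or KB-0742 8 h replicate 2 and turned to -0.77 under spike-in scaling. LMO2, the bridging protein of the TAL1 complex (chromosome 11, bases 33858576 to 33892289, minus strand, ENSG00000135363), was near the detection limit. It had 7, 0 and 0 counts in all 4 libraries together at 2, 4 and 8 h of the degrader, 3, 5 and 9 counts with KB-0742, and 4, 1 and 3 counts with DMSO. With the degrader set at the floor of 3 counts, the bounds against the inhibitor were 1.80-fold lower at 4 h and 2.59-fold lower at 8 h. They leave out the counting error of the 5 and 9 inhibitor counts. The edgeR fit without a filter called neither difference (adjusted p = 0.134 and 0.0754). Against vehicle no fold can be given for the degrader at 4 and 8 h, since both groups were at or under the floor.

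NOTCH1 (chromosome 9, bases 136494433 to 136545786, minus strand, ENSG00000148400) separated the compounds at 8 h in opposite directions around vehicle on the TMM scale, but not on the spike-in scale. It had 162, 225, 227 and 175 CPM with KI-CDK9d-32, 73.2, 93.8, 94.4 and 74.1 CPM with KB-0742, and 137, 132, 157 and 150 CPM with DMSO. The groups did not overlap, and vehicle lay between. At 2 h the means were 132 CPM with KI-CDK9d-32, 119 CPM with KB-0742 and 142 CPM with DMSO, and no change was called. The degrader gave +0.45 ± 0.11 at 8 h (adjusted p = 0.000936), which turned to -2.41 under spike-in scaling and -0.55 under library size. With the inhibitor NOTCH1 fell by 0.78 ± 0.12 at 8 h (2.13e-07), by 1.42 under library size and by 2.11 under spike-in scaling. The compounds differed by 1.23 ± 0.12 at 8 h (1.51e-12) and by 0.87 under library size, but by -0.30 ± 0.43 under spike-in scaling (0.565). Per 10000 spike-in counts, NOTCH1 had 1.78, 3.07, 0.965 and 2.81 with the degrader, 1.76, 2.91, 3.05 and 2.88 with the inhibitor, and 10.3, 9.34, 11.0 and 15.0 with DMSO. On that scale both compounds lay below vehicle and overlapped each other.

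HES1, the NOTCH target whose promoter window holds the RBPJ letters shown above (chromosome 3, bases 194136145 to 194138732, plus strand, ENSG00000114315), had few counts. At 2 h it had 1, 0, 1 and 1 counts with KI-CDK9d-32, 4, 4, 18 and 11 counts with KB-0742, and 7, 8, 12 and 9 counts with DMSO. The degrader libraries lay below all others, and inhibitor and vehicle overlapped. The ratio of degrader to vehicle was 0.0813 (95% counting interval 0.0160 to 0.257, from 3 against 36 counts), called with adjusted p = 0.0145 and lost without KI-CDK9d-32 2 h replicate 2 (0.0627). Against the inhibitor the ratio was 0.0827 (0.0163 to 0.261, from 3 against 37 counts), called with 0.00269 and at 0.0524 under spike-in scaling. At 8 h the order was different, with 9, 9, 8 and 0 counts with KI-CDK9d-32, 1, 2, 2 and 5 counts with KB-0742, and 7, 2, 9 and 6 counts with DMSO. All groups overlapped. Against vehicle the degrader gave +1.25 ± 0.72 (0.15), which turned to -1.76 under spike-in scaling. Against the inhibitor it gave +2.02 ± 0.79 (0.0261), lost in 5 of 8 fits without 1 library (up to 0.0733). The degrader effect on HES1 at 8 h exceeded that at 2 h (adjusted p = 0.00268), a call that rests on the 3 counts at 2 h and was at 0.187 under spike-in scaling.

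TCF7 (chromosome 5, bases 134114711 to 134151865, plus strand, ENSG00000081059) was the most abundant of the genes and moved in opposite directions with the compounds at 8 h on the TMM scale, while on the spike-in scale it was lower with both. At 2 h it had 789, 816, 684 and 736 CPM with KI-CDK9d-32, 941, 948, 714 and 720 CPM with KB-0742, and 700, 689, 563 and 593 CPM with DMSO. Inhibitor libraries lay above all vehicle libraries, and degrader libraries overlapped both. At 8 h the values were 1071, 1066, 920 and 1156 CPM with KI-CDK9d-32, 386, 413, 462 and 494 CPM with KB-0742, and 765, 717, 602 and 744 CPM with DMSO. No group overlapped another. The degrader changed TCF7 by +0.63 ± 0.11 at 4 h (adjusted p = 1.49e-05, -0.35 under spike-in scaling) and by +0.58 ± 0.10 at 8 h (6.56e-06, -2.21 under spike-in scaling and -0.44 under library size). KB-0742 changed it by +0.38 ± 0.10 at 2 h (0.00352, -0.43 under spike-in scaling and -0.10 under library size) and by -0.69 ± 0.10 at 8 h (2.82e-07), with -1.32 under library size and -2.00 under spike-in scaling. From 2 to 8 h the inhibitor effect moved by -1.07 ± 0.15 (1.01e-07), which was not called under spike-in scaling. Degrader and inhibitor differed by 0.45 ± 0.10 at 4 h (0.000561) and by 1.26 ± 0.11 at 8 h (1.63e-14), the second turned to -0.21 under spike-in scaling. SKP1, a ubiquitin ligase subunit, overlaps TCF7 on the opposite strand, and without strand their reads cannot be told apart. It had 854 ± 221 CPM with KI-CDK9d-32, 475 ± 37.1 CPM with KB-0742 and 675 ± 82.2 CPM with DMSO at 8 h (library size scale, SD, n = 4 each), and its part in the TCF7 values was not tested.

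LEF1 and BCL11B were not called with the degrader at any time on the TMM scale. LEF1 (chromosome 4, bases 108047545 to 108168956, minus strand, ENSG00000138795) had 189, 214, 155 and 190 CPM with KB-0742 at 4 h and 149, 123 and 138 CPM with DMSO. The groups did not overlap, and the change of +0.45 ± 0.13 (adjusted p = 0.00494) turned to -0.82 under spike-in scaling and -0.19 under library size. At 8 h LEF1 had 145, 160, 101 and 173 CPM with KI-CDK9d-32, 138, 173, 159 and 176 CPM with KB-0742, and 130, 154, 123 and 134 CPM with DMSO. All groups overlapped and none was called by the TMM fit. LEF1 with KB-0742 was at +0.26 ± 0.12 (0.0732), which RLE size factors (0.0422) and DESeq2 (0.0294) called and which turned to -1.05 under spike-in scaling and -0.38 under library size. LEF1-AS1, on the opposite strand, had 23, 39 and 34 counts in these groups. BCL11B (chromosome 14, bases 99169287 to 99271524, minus strand, ENSG00000127152) had 30.4, 26.7, 18.5 and 19.5 CPM with KI-CDK9d-32 at 4 h, 50.1, 46.9, 47.4 and 26.1 CPM with KB-0742, and 25.6, 28.8 and 20.1 CPM with DMSO. Of the inhibitor libraries, 3 lay above all others and the fourth lay among vehicle. The change with KB-0742 was +0.76 ± 0.24 at 4 h (0.00989), lost without DMSO 4 h replicate 4 (0.069) and turned to -0.54 under spike-in scaling. At 8 h it was +0.51 ± 0.22 (0.0497), lost in 6 of 8 fits without 1 library (up to 0.134) and turned to -0.80 under spike-in scaling and -0.13 under library size. BCL11B was lower with the degrader than with the inhibitor at 4 h (-0.81 ± 0.23, 0.00451), which spike-in scaling left at -0.46 without a call.

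**Figure D4:**
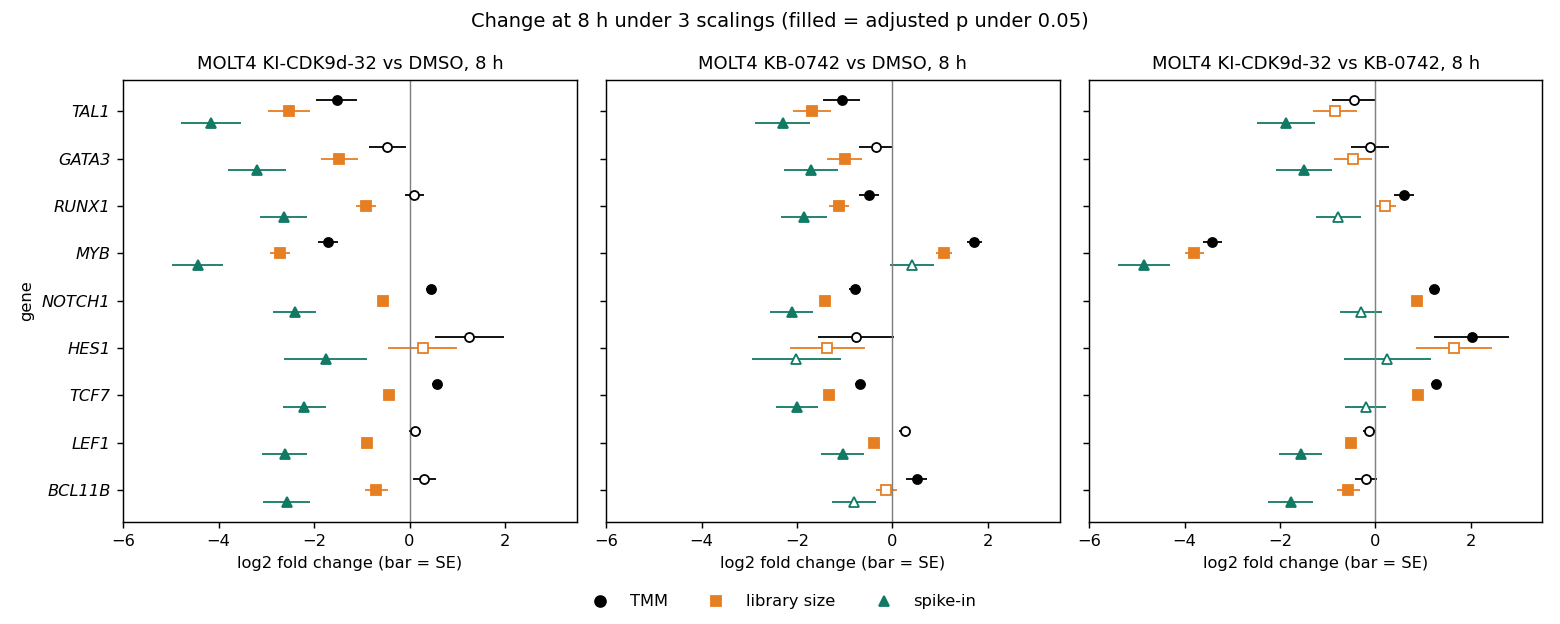
Log2 fold changes ± SE (horizontal axis) of the 9 tested genes in MOLT4 at 8 h under TMM (circles), library size (squares) and spike-in scaling (triangles), filled where the adjusted p was under 0.05. With KI-CDK9d-32 all 9 genes lie below 0 under spike-in scaling. Under TMM 3 of the 9 lie below 0, and TCF7 and NOTCH1 are the 2 genes called above it. MYB with KB-0742 stays above 0 on all 3 scales, without a call on the spike-in scale.

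Under spike-in scaling all 9 tested genes were called lower with KI-CDK9d-32 at 8 h, where 91.0% of all genes were called lower, with a median of -2.61 against -2.99 for all genes. KB-0742 at 8 h gave 6 genes lower, beside 54.3% of all genes. MYB (-4.44 ± 0.54) and TAL1 (-4.17 ± 0.63) fell below that median of all genes with the degrader, and HES1 (-1.76 ± 0.87), TCF7 (-2.21 ± 0.45) and NOTCH1 (-2.41 ± 0.45) lay above it. Against the inhibitor's all-gene median of -1.41, MYB was at +0.41 ± 0.46, BCL11B at -0.80 ± 0.46 and LEF1 at -1.05 ± 0.45, and TAL1 was at -2.30 ± 0.58 and NOTCH1 at -2.11 ± 0.45.

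Across the 9 MOLT4 group means of log2 CPM, which share libraries and scaling, MYB ran against TCF7 (Pearson r = -0.916), NOTCH1 (-0.875) and RUNX1 (-0.850), while NOTCH1 ran with TCF7 (0.841) and RUNX1 (0.835). The genes most like MYB over these groups were NIP7 (0.998) and SURF6 (0.994), both of ribosome biogenesis. MRPS21 (0.990), a mitochondrial ribosomal protein gene, and EPB41 (0.989) were most like TCF7, and TTYH3 (0.967) and CXorf38 (0.961) most like NOTCH1. For TAL1 they were NEU1 (0.963) and STAMBPL1 (0.960), for GATA3 ZC3H4 (0.952), and for RUNX1 OGFOD2 (0.973) and SDR39U1 (0.971). TEN1 (0.980) and PSMB2 (0.974) were most like LEF1, QSER1 (0.955) and CEP85L (0.948) most like BCL11B, and PMS2P1 (0.897) and NEK4 (0.879) most like HES1. These are descriptions over 9 points, picked from the highest among all expressed genes.

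A list of 74 further genes of the TAL1 complex, of T-lineage and ETS factors, of NOTCH signalling and of known targets was described beside the 10, and 40 of them passed the filter in MOLT4. With KI-CDK9d-32, 0, 6 and 10 of the 40 were called higher and 5, 11 and 13 lower at 2, 4 and 8 h, together 12.5%, 42.5% and 57.5% of them, beside 9.98%, 32.6% and 49.6% of all genes. With KB-0742, 4, 6 and 4 were higher and 7, 5 and 11 lower, together 27.5%, 27.5% and 37.5%, beside 26.1%, 35.8% and 49.2% of all genes. The list's median at 8 h was -0.22 with the degrader and -0.19 with the inhibitor, beside -0.18 and -0.10 for all genes. Under spike-in scaling all 40 were called lower with the degrader at 8 h, beside 91.0% of all genes. With the inhibitor at 8 h, 31 of the 40 were called lower on that scale, beside 54.3% of all genes. The difference from all genes was not tested. Large falls with KI-CDK9d-32 at 8 h were those of ETS2, an ETS factor, with 3.46 ± 1.83 CPM against 23.5 ± 5.75 CPM with DMSO (-2.73 ± 0.34), and TLE3, a corepressor of TCF and LEF factors (-2.67 ± 0.33). The largest rises were those of TCF4, an E protein, with 22.4 ± 7.38 CPM against 7.07 ± 1.70 CPM (+1.64 ± 0.33, and -1.22 under spike-in scaling), ALDH1A2, a retinoic acid enzyme and TAL1 target, with 391 ± 73.4 CPM against 137 ± 19.4 CPM (+1.52 ± 0.12, and -1.27 under spike-in scaling), and PTCRA, the pre-T-cell receptor alpha chain and a NOTCH target (+1.36 ± 0.48, adjusted p = 0.0182, lost without KI-CDK9d-32 8 h replicate 2 and -1.54 under spike-in scaling).

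With KB-0742 at 8 h the largest falls were those of DNMT3B, a DNA methyltransferase, with 0.562 ± 0.851 CPM against 4.21 ± 1.53 CPM with DMSO (-2.81 ± 0.76), TLE4, another corepressor (-2.56 ± 0.73), and ETV6, an ETS repressor, with 4.39 ± 3.31 CPM against 13.6 ± 2.91 CPM (-1.60 ± 0.41). FBXW7, the ubiquitin ligase subunit that marks the NOTCH1 intracellular domain for degradation, rose most, with 19.7 ± 1.27 CPM against 7.27 ± 1.19 CPM (+1.43 ± 0.31, adjusted p = 0.000133, and +0.13 under spike-in scaling). ZEB1, a T-lineage repressor, was next (+0.96 ± 0.24, and -0.38 under spike-in scaling), followed by TCF12, the E protein partner of TAL1 (+0.61 ± 0.15, -0.71 under spike-in scaling and -0.03 under library size). All values ± of CPM are SD with n = 4.

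In PSN1 4 of the genes were tested and in RH4 5, too few for the number of calls to be a result about them. Of 4 tested genes in PSN1 (RUNX1, TCF7, NOTCH1 and HES1), edgeR called 0 for the degrader at 4 h, 0 at 8 h, 0 for the inhibitor at 4 h and 0 at 8 h, where 7.36%, 20.7%, 23.9% and 30.2% of all genes were called. At an unadjusted p under 0.05 there were 1, 1, 0 and 0, and DESeq2 called 1, 0, 0 and 0. NOTCH1 in PSN1 at 4 h had 31.8, 25.2, 35.0 and 43.2 CPM with KI-CDK9d-32 and 54.4, 61.6, 30.0 and 59.4 CPM with DMSO. The groups overlapped through 1 vehicle library, and the change was -0.61 ± 0.21 (adjusted p = 0.0629). RUNX1 in PSN1 at 8 h was at +0.70 ± 0.31 with the degrader (0.102), and at -0.32 under spike-in scaling. Of 5 tested genes in RH4 (RUNX1, TCF7, LEF1, NOTCH1 and BCL11B), edgeR called 0 for the degrader at 4 h, 0 at 8 h, 0 for the inhibitor at 4 h and 2 at 8 h, beside 5.36%, 15.2%, 31.6% and 45.4% of all genes. Unadjusted p-values under 0.05 numbered 0, 1 and 1 in the comparisons with no call, and DESeq2 called 0 in each.

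The 2 calls in RH4 rested on few counts. BCL11B at 8 h had 1, 0, 5 and 0 counts with KB-0742 and 14, 15, 10 and 10 with DMSO, without overlap (-1.85 ± 0.77, adjusted p = 0.0447), and the call was lost in 7 of 8 fits without 1 library (up to 0.133). TCF7 had 4.43, 5.10, 4.13 and 14.9 CPM with KB-0742 and 4.31, 0.572, 2.87 and 3.37 CPM with DMSO (+1.30 ± 0.53, 0.0411), lost without KB-0742 replicate 4 (0.328) and turned to -0.23 under spike-in scaling. NOTCH1 in RH4 at 8 h had 14.4, 22.5, 16.4 and 23.9 CPM with KI-CDK9d-32, 26.6, 16.6, 15.3 and 29.0 CPM with KB-0742, and 37.6, 21.5, 31.8 and 30.9 CPM with DMSO. All groups overlapped, with -0.65 ± 0.23 for the degrader (0.0533) and -0.49 ± 0.24 for the inhibitor (0.099). TAL1, without a count with DMSO at 8 h in either line, had 6, 0, 1 and 3 counts with KI-CDK9d-32 in PSN1 and 1, 2, 1 and 1 counts in RH4, and none with KB-0742. With vehicle set at the floor of 3 counts, the bounds are 3.15-fold and 1.69-fold higher with the degrader. They leave out the counting error of the degrader counts. The edgeR fit without a filter called neither change (adjusted p = 0.0966 in PSN1 and 0.239 in RH4).

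**Figure D5:**
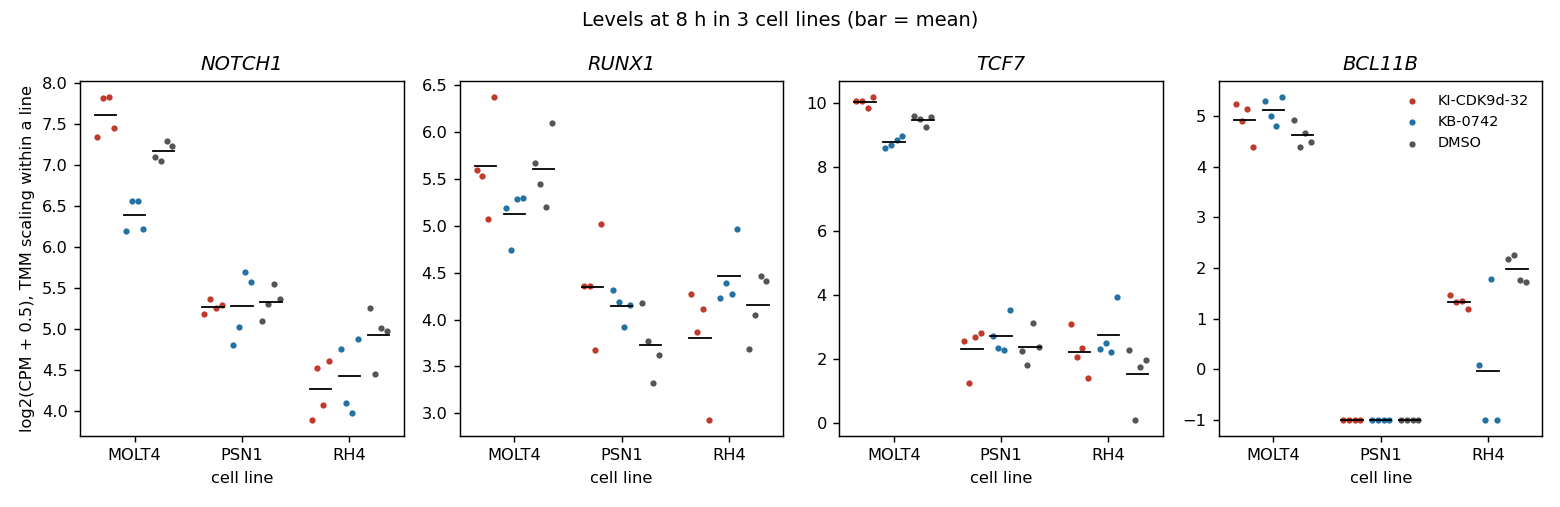
Levels of NOTCH1, RUNX1, TCF7 and BCL11B at 8 h in MOLT4, PSN1 and RH4, as log2 of CPM plus 0.5 with TMM scaling within a line, for KI-CDK9d-32 (red), KB-0742 (blue) and DMSO (grey), with 1 point per library and bars at the means. NOTCH1 in MOLT4 is split by compound with 162 to 227 CPM for the degrader and 73.2 to 94.4 CPM for the inhibitor, a split that is not seen on the spike-in scale, and its groups overlap in PSN1 and RH4. BCL11B in PSN1 is drawn at -1, the value of 0 counts.

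Whether an effect itself differed between lines was tested at 8 h in 1 fit over the 3 lines. For KI-CDK9d-32, 1 of 9 genes was called in MOLT4 against PSN1 and 2 against RH4, beside 17.2% and 16.3% of all genes. For KB-0742 there were 1 and 2, beside 11.2% and 8.39%. Several of the 9 could hardly show a difference. LEF1 and BCL11B had no count in PSN1 at 8 h, and MYB had at most 3 counts per group in either line. GATA3 in RH4 had counts only with DMSO. These genes entered the fit through MOLT4, so nothing is read from the number of calls. The degrader effect on NOTCH1 was higher in MOLT4 than in RH4 (+1.22 ± 0.27, adjusted p = 0.000821), and spike-in scaling turned the difference to -0.89. TAL1 was called for the degrader in both, from vehicle groups without counts in PSN1 and RH4, and no size is given. The inhibitor effect on NOTCH1 was lower in MOLT4 than in PSN1 (-0.79 ± 0.26, 0.0406), lost in 8 of 16 fits without 1 library (up to 0.138). Against RH4 the inhibitor effect on TCF7 was lower in MOLT4 (-1.98 ± 0.52, 0.0121), lost without RH4 KB-0742 8 h replicate 4 (0.0935). BCL11B was higher by 2.28 ± 0.66 (0.0234), lost without RH4 KB-0742 8 h replicate 1, 2 or 4 (up to 0.0703). Under spike-in scaling none of these differences for KB-0742 was called.

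Over time in MOLT4, the change of effect between 2 and 8 h was called for 3 of 9 genes with each compound, beside 25.8% of all genes for the degrader and 32.4% for the inhibitor. With the degrader these were MYB and HES1, described above, and NOTCH1 (+0.56 ± 0.16, adjusted p = 0.0063), which turned to -1.90 under spike-in scaling and -0.23 under library size. With the inhibitor they were MYB, TCF7 and NOTCH1 (-0.53 ± 0.16, 0.00925), the last lost without KB-0742 8 h replicate 4 (0.0523). Under spike-in scaling none of these changes with the inhibitor was called. Under TMM, KI-CDK9d-32 8 h replicate 3, with the highest spike-in share, did not decide the degrader calls against vehicle at 8 h. The fits without 1 library all used TMM, so spike-in scaled calls were not checked in this way. Without KI-CDK9d-32 8 h replicate 3, MYB (-1.54), TAL1 (-1.22), TCF7 (+0.66, before the spike-in reversal given above) and NOTCH1 (+0.41, likewise) remained called.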

How the data were processed

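The authors deposited, for each line, a table of estimated counts per gene rounded to whole numbers and a table of log2 values of TPM plus 1, both with spike-ins included, and per the submitters' processing notes they came from Salmon and the hg38 build. The Salmon version and the annotation are not given in the sources used here. Gene coordinates are from GENCODE on GRCh38, and promoter windows are from RefSeq on GRCh38.p14, with the 50 bases after the start left out. The 99 spike-in entries and 47 pseudoautosomal Y copies were set apart, and CPM and spike-in scaled values were computed from the counts. TPM was rescaled over genes only.

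Differences were tested on the expected counts the authors deposited with the edgeR quasi-likelihood test (edgeR 4.0.16, limma 3.58.1, R 4.3.3; robust, TMM factors, filterByExpr with a minimum count of 10), 1 model per line and 1 joint model each for vehicle levels and for 8 h effects between lines. MOLT4 had 11664 genes tested, PSN1 12471 and RH4 12058, and the genes set aside held 0.437% to 0.683% of counts. P-values were adjusted by Benjamini-Hochberg over all genes of a comparison. Counts were simulated for the 8 h degrader comparison in MOLT4 (11664 genes), with 100 genes changed by each size. On them the test recovered 38% of log2 changes of 1 and 72% of changes of 2, with 4 false calls. In the real comparison 49.6% of genes were called, so these rates need not hold there. Alternatives were spike-in scaling, size factors of DESeq2 (1.42.0) and its own test, no filter, a replicate block, leaving out each library, and library size, which was added after seeing the data.

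All 10 genes were named. Of the listed circuit genes the 3 called with the largest rise and fall at 8 h were named, and for likeness the 2 highest genes with mean log2 CPM of at least 3. Of the genes these rules chose, 2 are not reported here. The genes, lists and tests were chosen with earlier results of these data known. The labels call replicates biological but do not say that they came from separate cultures, so a p-value here reflects only the spread among these libraries, which could be technical. No libraries agreed within sampling noise (lowest chi-square per degree of freedom 3.03). Replicate numbers were not treated as pairs.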

Additional observations from a re-analysis of the deposited data

Results flagged for a closer look

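In groups of 4 libraries, 1 library stood apart from the other 3 in 13 of 126 checks of a gene's CPM, where chance marks about 1 in 20 groups. For TAL1 in MOLT4 these were 5.50 CPM with KI-CDK9d-32 at 4 h (others 3.43 to 3.70), 3.48 with KB-0742 at 4 h (10.5 to 11.7) and 12.5 with KB-0742 at 8 h (4.07 to 5.24). GATA3 in MOLT4 had 7.10 CPM with KI-CDK9d-32 at 2 h (5.26 to 5.47) and 17.3 with KB-0742 at 8 h (8.54 to 9.50). BCL11B in MOLT4 had 26.1 CPM with KB-0742 at 4 h (46.9 to 50.1), and HES1 had 0 with KI-CDK9d-32 at 2 h (0.296 to 0.342). RUNX1 stood apart with DMSO at 4 h, with 6.97 CPM in PSN1 (15.9 to 16.8) and 22.0 in RH4 (15.1 to 16.2). NOTCH1 had 38.9 CPM in PSN1 with KB-0742 at 4 h (42.0 to 42.1), 27.2 in RH4 with KI-CDK9d-32 at 4 h (18.7 to 20.2) and 38.9 in RH4 with DMSO at 4 h (25.4 to 26.4). TCF7 had 14.9 CPM in RH4 with KB-0742 at 8 h (4.13 to 5.10).

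Effects that differed by a test of the difference itself, in edgeR with adjustment over all genes, and that rest on more than 3 counts in every group, were these. Between 8 and 2 h in MOLT4 the KI-CDK9d-32 effect differed by -1.28 for MYB and 0.56 for NOTCH1, and the KB-0742 effect by 1.60 for MYB, -1.07 for TCF7 and -0.53 for NOTCH1. Between lines at 8 h, the KI-CDK9d-32 effect on NOTCH1 was 1.22 higher in MOLT4 than in RH4. The KB-0742 effect differed by -0.79 for NOTCH1 between MOLT4 and PSN1, and by -1.98 for TCF7 and 2.28 for BCL11B between MOLT4 and RH4. The NOTCH1 differences with the degrader turn sign under spike-in scaling, and none of the KB-0742 differences was called on that scale. HES1 with the degrader over time and TAL1 with the degrader between MOLT4 and each other line were also called, but from groups with 3 counts or fewer.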

How the results depend on the processing

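Scaling was the choice that moved these results most. Under spike-in scaling the sign turned for TCF7 with KI-CDK9d-32 at 4 h (-0.35) and 8 h (-2.21), with KB-0742 at 2 h (-0.43), between the compounds at 8 h (-0.21) and in RH4 with KB-0742 at 8 h (-0.23). It turned for NOTCH1 with KI-CDK9d-32 at 8 h (-2.41), between the compounds at 8 h (-0.30), for the degrader's change of effect over time (-1.90) and for the degrader between MOLT4 and RH4 (-0.89). It also turned for MYB (-0.70), LEF1 (-0.82) and BCL11B (-0.54) with KB-0742 at 4 h, for BCL11B at 8 h (-0.80) and for RUNX1 between the compounds at 8 h (-0.77). Library size turned TCF7 with KI-CDK9d-32 at 8 h (-0.44) and KB-0742 at 2 h (-0.10), NOTCH1 with KI-CDK9d-32 at 8 h (-0.55) and over time (-0.23), LEF1 with KB-0742 at 4 h (-0.19) and BCL11B with KB-0742 at 8 h (-0.13). The cause was not tested.

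The number of called genes, of 9 tested in MOLT4 and between lines, 4 in PSN1 and 5 in RH4, moved by over 1.5 times or to or from 0 as listed here, and by at most 1 gene under the other alternatives that keep all libraries. Spike-in scaling gave 9 for KI-CDK9d-32 at 8 h, 0 and 2 between the compounds at 2 and 4 h, 8 and 0 for the change over time with KI-CDK9d-32 and KB-0742, 3, 0, 5 and 0 for the differences from PSN1 (KI-CDK9d-32, KB-0742) and RH4 (same order), 1, 1, 2 and 1 in PSN1 (KI-CDK9d-32 at 4 and 8 h, KB-0742 at 4 and 8 h), and 3 and 4 in RH4 (KI-CDK9d-32 at 8 h, KB-0742 at 4 h). Library size gave 2 and 8 for KI-CDK9d-32 at 2 and 8 h, 3 for KB-0742 at 2 h, 6 for the degrader over time, 1 and 1 in PSN1 at 4 h, 2 and 2 in RH4 (KI-CDK9d-32 at 8 h, KB-0742 at 4 h), and 2 and 1 for the degrader between MOLT4 and the other lines. DESeq2 gave 3 for KB-0742 at 2 h, 1 for KI-CDK9d-32 in PSN1 at 4 h, and 3 and 2 for the differences from PSN1. RLE size factors gave 3 for KB-0742 at 2 h and 0 for its difference from PSN1, and no filter gave 2 for that difference and 0 for KB-0742 in RH4 at 8 h. Calls that ended without the filter were those of LEF1 at 4 h (adjusted p = 0.0536) and BCL11B at 8 h (0.0925) with KB-0742, of MYB at 2 h (0.0606), TAL1 at 4 h (0.0631) and HES1 at 8 h (0.0524) between the compounds, of NOTCH1 over time with the degrader (0.0792) and the inhibitor (0.0528), and in RH4 of TCF7 (0.112) and BCL11B (0.0919). TAL1 (0.0482 and 0.0351) and NOTCH1 (0.0499 and 0.0298) with KB-0742 at 2 h, and TCF7 over time with the degrader (0.0196 and 0.0176), were called with RLE size factors and with DESeq2.

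With the replicate number as a replicate block, 2 genes were called for KI-CDK9d-32 at 2 h, 2 for KB-0742 at 2 h, 1 for KI-CDK9d-32 in PSN1 at 4 h, and 1 each for KI-CDK9d-32 and KB-0742 in RH4 at 8 h. It gave 7 for KB-0742 at 8 h, with LEF1 added (0.022), 4 for the degrader over time, with TCF7 added (0.0345), and 8 in both vehicle comparisons, without HES1 (0.531 against PSN1 and 0.357 against RH4). Correlations of same-numbered deviations ran from -0.019 to 0.078 in MOLT4, from 0.0355 to 0.169 in PSN1 and from 0.0172 to 0.123 in RH4, and in no comparison were all pairs over 0.1. Every library correlated best with its own number in PSN1 with KB-0742 at 8 h (4 of 4) and in MOLT4 with KB-0742 at 4 h (3 of 3), a hint from the data and not from the design, and in the other comparisons 2 or 3 did. The spike-in share also followed the number. In RH4, replicate 1 had the highest and replicate 3 the lowest share in every group, with 12.2% and 7.51% for DMSO at 4 h. Replicate 4 had the lowest share in every MOLT4 group but KB-0742 at 4 h, and the highest in every PSN1 group but DMSO at 8 h. Since the design names no block, none entered the main fits. The tests of spike-in share and the spike-in scaled fits leave this pattern out of account.

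Leaving out 1 library at a time gave 0 to 1, 3 to 4 and 4 to 5 called genes for KI-CDK9d-32 at 2, 4 and 8 h, 1 to 2, 2 to 3 and 3 to 6 for KB-0742, and 1 to 3, 4 to 5 and 4 to 5 between the compounds. It gave 3 to 4 and 2 to 3 for the changes over time, 0 to 1 and 0 to 1 for KI-CDK9d-32 in PSN1, 0 to 1 for KI-CDK9d-32 in RH4 at 8 h, 0 to 1 and 0 to 2 for KB-0742 in RH4, 8 to 9 for both vehicle comparisons, 0 to 1 for KB-0742 between MOLT4 and PSN1 and 0 to 2 between MOLT4 and RH4. HES1 and LMO2 rest on few counts, which limits what this depth can show.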

Other observations

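GATA3 was barely expressed in PSN1 and RH4, and its summed counts at 8 h were below vehicle with both compounds. In PSN1 it had 4, 2, 3 and 0 counts with the degrader, 1, 1, 0 and 1 with the inhibitor, and 3, 4, 9 and 13 with DMSO. The inhibitor did not overlap vehicle, with a ratio of 0.102 (95% counting interval 0.0199 to 0.33, counting error only), and the degrader did. In RH4 neither compound left a count (0 with either), against 0, 6, 2 and 0 counts with DMSO, and since 1 library held 6 of the 8 no fold is given. GATA3 did not pass the filter in either line. The edgeR fit without a filter called it in none of these comparisons, with adjusted p = 0.5 for the degrader and 0.0964 for the inhibitor in PSN1, and 0.228 and 0.205 in RH4. At an unadjusted p under 0.05 stood the inhibitor in PSN1 (0.0121) and the degrader in RH4 (0.0276).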
